A study of Macaca mulatta with 13 samples.

Results

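The family described here is made of miR-148a, miR-148b and miR-152, 3 microRNAs (miRNAs) that come from separate genes and carry the same seed, the stretch of bases that finds target transcripts. Its members were chosen by name: every row of the deposited count table named for miR-148a, miR-148b or miR-152, with or without a copy number or an arm. This gave 6 of 909 named miRNAs, the 5p and the 3p arm of each of the 3 hairpins. Where a name is listed more than once the row with the highest total count was to be kept, but each of the 6 names has a single row, so no measured value entered the choice of rows.

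The tissue was vastus lateralis, a muscle of the thigh, taken as biopsies from rhesus monkeys (Macaca mulatta) on a control diet (Control, 5 samples) or on caloric restriction (CR, 8 samples). Small RNA was sequenced from each, and the comparison asks which miRNAs differ in muscle with the diet, in a series whose title concerns CR and sarcopenia, the muscle loss of ageing. The labels give no strain, age, sex, length of diet or degree of restriction, and no treatment other than the diet. They do not state that every sample came from a separate animal, so that the p-values measure the spread between these samples.

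A miRNA hairpin is cut into a 5p and a 3p strand, and the strand that is loaded into an Argonaute protein guides it to transcripts that pair with the seed. Guides with the same seed can act on the same sites, so miR-148a, miR-148b and miR-152 are largely treated as interchangeable on their targets, and they differ in where and when their genes are transcribed. In human cells the DNA methyltransferase DNMT1 is a known target of the family. In liver of mice and humans miR-148a represses the LDL receptor and the cholesterol exporter ABCA1, and in mouse myoblasts miR-148a promotes differentiation by repressing the kinase ROCK1.

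The genes of the family sit in related surroundings in the RefSeq annotation of the assembly T2T-MMU8v2.0, which is not the build of the counts and was used for names and neighbours only. MIR148B lies on chromosome 11 within COPZ1, and MIR152 on chromosome 16 within COPZ2. These host genes encode the paralogous zeta subunits of the coatomer, the coat of vesicles that travel between the Golgi and the endoplasmic reticulum. MIR148A, on chromosome 3, lies within no protein-coding gene. It overlaps an uncharacterised long non-coding RNA, and its nearest protein-coding neighbours are NFE2L3 on one side and NPVF on the other. Next to MIR148B lie NFE2, HNRNPA1 and CBX5, next to MIR148A lie NFE2L3, HNRNPA2B1 and CBX3, and next to MIR152 lie NFE2L1 and CBX1. Each of these is a set of paralogs, of a cap'n'collar transcription factor, an RNA-binding protein and a heterochromatin protein in turn. A Hox cluster is on the chromosome of each member, with 7 protein-coding genes between HOXA and MIR148A, 4 between HOXC and MIR148B, and 4 between HOXB and MIR152.

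Libraries held 1154326 to 5392611 counts in named miRNAs. Levels are given as CPM, read counts brought to a common library size with TMM factors, which set libraries to a common level over most miRNAs and are needed here because miR-486-5p alone took 42.4 to 70.7% of counts. Skeletal muscle miRNAs (miR-1, miR-133a, miR-133b and miR-206, 7 names, all detected) summed to 39191 to 80928 CPM in 12 libraries and to 13529 CPM in Control replicate 4. That library stood apart in other markers too: its fibroblast miRNAs (both arms of miR-199a and miR-214) summed to 2048 CPM against 487 to 1636 CPM in the other 12 libraries. Results are therefore also given without it.

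The family as a whole was a small part of the muscle miRNAs. Its share of all counts averaged 0.108% ± 0.0553 across the Control libraries (SD, n = 5) and 0.106% ± 0.0332 across the CR libraries (SD, n = 8). Single libraries ran from 0.0540% in Control replicate 1 (95% exact binomial interval 0.0516 to 0.0566%) to 0.198% in Control replicate 4 (0.194 to 0.203%). The intervals hold counting error alone, since reads copied by PCR were not marked and are not independent molecules. Out of counts without miR-486 the family's share was 0.228% ± 0.0832 in Control and 0.260% ± 0.0560 in CR. The summed level on the TMM scale was 884 ± 217 CPM in Control and 1113 ± 226 CPM in CR, from 665 to 1127 and from 768 to 1433 CPM. The groups overlapped on all 3 scales, and the sum was not tested.

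Most family reads came from miR-148a, and within it from the 3p arm. Over all libraries miR-148a-3p had 36588 counts and ranked 41st of 909 miRNAs by total, miR-148b-3p had 5285 and ranked 100th, miR-152-3p had 3838 and ranked 106th, and miR-148a-5p had 3128 and ranked 116th. The remaining arms were rare, with 263 counts for miR-152-5p and 52 for miR-148b-5p. Mature miRNAs are of nearly equal length, but ligation favours some ends over others, so an order of counts need not be an order of molecules. In counts, miR-148a-3p exceeded miR-148b-3p in 13 of 13 libraries, with a mean log2 ratio of 2.72 ± 0.38 (SD, n = 13). The next neighbours were closer. miR-148b-3p exceeded miR-152-3p in 11 of 13 libraries, with a mean log2 ratio of 0.57 ± 0.48 (SD). miR-152-3p exceeded miR-148a-5p in 8 of 13, and there the mean log2 ratio of 0.28 was smaller than its SD between libraries of 0.63. miR-148a-5p exceeded miR-152-5p, and miR-152-5p exceeded miR-148b-5p, in 13 of 13 libraries. Members differ from each other by few bases, and how reads that fit several of them were divided is not given in the sources used here, so values of single members carry that uncertainty.

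miR-148a-3p, the main guide of the family, had a higher fitted level in CR, which did not pass the test. Its level in Control was 463, 419, 812, 822 and 611 CPM in replicates 1 to 5. In CR it ran from 569 to 1164 CPM with a median of 853. Of the 8 CR libraries, 7 lay above the Control mean of 625.4 ± 189 CPM (SD, n = 5) and 4 above every Control library, but the groups overlapped, with CR replicate 6 the lowest in CR. By edgeR's quasi-likelihood test the log2 fold change, CR against Control, was 0.44 ± 0.24 (SE), which is 1.36-fold with a 95% interval of 0.963 to 1.92, and the adjusted p was 0.985 (unadjusted 0.0777). Leaving out 1 library at a time gave 0.30 (without Control replicate 1) to 0.57 (without Control replicate 3). Without Control replicate 4 it was 0.56, and with library totals alone, where the median of all tested miRNAs was -0.26, it was 0.0699.

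The other strand of the same hairpin, miR-148a-5p, stood at 58.6, 35.3, 77.5, 68.4 and 50.0 CPM in Control replicates 1 to 5. In CR it ran from 45.0 to 91.3 CPM, with a median of 68.9. As many CR libraries lay above the Control mean as below it (4 and 4), and 4 of the 8 lay above every Control library. Its log2 fold change was 0.23 ± 0.26 (SE) with an adjusted p of 0.985 in edgeR. Over the 13 libraries its level followed that of miR-148a-3p with a Spearman's rho of 0.74, a description over libraries that share depth and scaling. No other pair of tested family arms reached more than 0.50, the value for miR-148a-3p and miR-148b-3p.

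**Figure D1:**
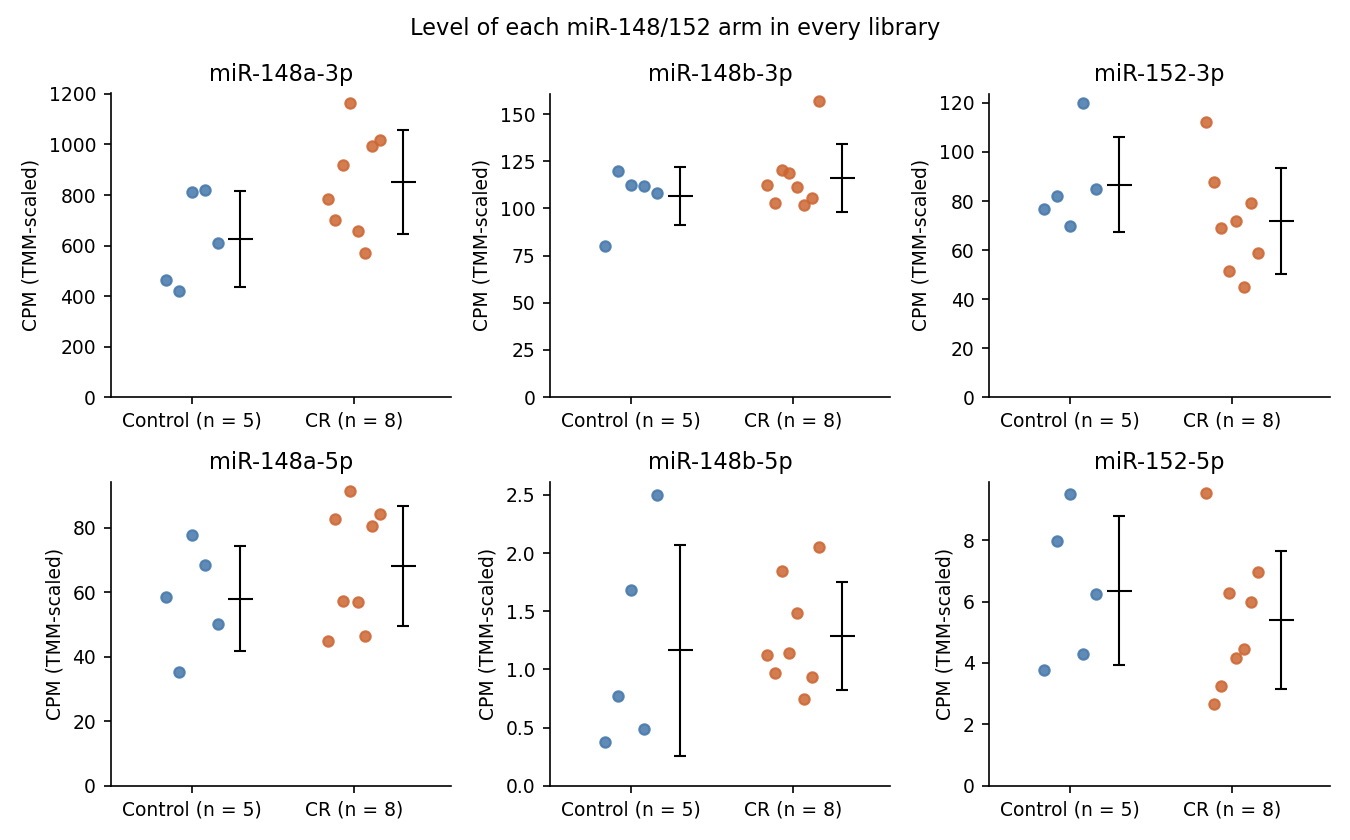
Level of each arm in CPM (vertical axes from 0, scaled with TMM factors) for 5 Control and 8 CR libraries; each point is 1 library, in order of replicate number within a group, and the bar beside the points is the mean ± SD. The groups overlap in all 6 panels: CR libraries reach higher for miR-148a-3p (up to 1164 CPM against 822) and lower for miR-152-3p (down to 45.0 CPM against 70.0).

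miR-148b-3p, whose gene lies within COPZ1, varied little across the biopsies. It stood at 80.02, 120, 113, 112 and 108 CPM in Control replicates 1 to 5. In CR 7 of 8 libraries lay between 102 and 120 CPM, and CR replicate 8 had 157 CPM. The median was 112 CPM in each group. The log2 fold change was 0.12 ± 0.20 (SE), or 1.09-fold with a 95% interval of 0.816 to 1.46, and the adjusted p in edgeR was 0.985. It was -0.0192 without Control replicate 1 and -0.0207 without CR replicate 8, so no direction can be read from it. The SD of its log2 CPM over 13 libraries was 0.21, which ranked 5th from the lowest among 99 tested miRNAs with a mean of at least 100 CPM, where the median SD was 0.47. It ranked 2nd without CR replicate 8 and 9th without Control replicate 4. On a scale of library totals without miR-486 in place of TMM factors it ranked 13th, with an SD of 0.28. On the TMM scale miR-148a-3p ranked 47th, with an SD of 0.44. The other strand, miR-148b-5p, had 1, 3, 6, 4 and 6 counts in Control replicates 1 to 5 and 2 to 5 counts in CR libraries. The 95% Poisson interval of a count of 1 runs from 0.0253 to 5.57 and that of 6 from 2.20 to 13.1, so no difference was detectable at this depth, and this arm did not pass the filter on low counts.

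miR-152-3p, whose gene lies within COPZ2, was the main arm with a lower fitted level in CR. Its level in Control was 76.6, 81.9, 70.0, 120 and 84.96 CPM in replicates 1 to 5. In CR it ran from 45.0 to 112 CPM with a median of 70.2. Of the 8 CR libraries 4 lay below every Control library, and CR replicate 1 with 112 CPM lay above all Control libraries but replicate 4. The log2 fold change was -0.27 ± 0.25 (SE), or 0.827-fold with a 95% interval of 0.579 to 1.18, with an adjusted p of 0.985 in edgeR. It was -0.13 without Control replicate 4, -0.45 without CR replicate 1 and -0.53 with library totals alone. miR-152-5p, its rare strand, stood at 3.76, 7.99, 9.52, 4.28 and 6.25 CPM in Control replicates 1 to 5 and at 2.67 to 9.55 CPM in CR. Its log2 fold change was -0.25 ± 0.36 (SE; adjusted p 0.985). It was -0.0465 without Control replicate 3.

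Of the 5 family arms that passed the filter on low counts 0 passed the threshold, an adjusted p of 0.05 over all miRNAs tested, and 0 had an unadjusted p under 0.05. The share of all 263 tested miRNAs that passed was 0%, and 2.66% (7) had an unadjusted p under 0.05. DESeq2 and limma-voom, 2 other count tests, also called 0 family arms, and 0 at an unadjusted p under 0.05. Fitted levels were higher in CR for 3 of the 5 arms, where 51.7% of all tested miRNAs were, and lower for 2, where 48.3% were. The median log2 fold change of the 5 was 0.12 beside 0.0103 over all 263. For 4 of the 5, all but miR-152-5p, the 95% interval lay within a 2-fold change either way, as it did for 58.6% of all tested miRNAs.

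**Figure D2:**
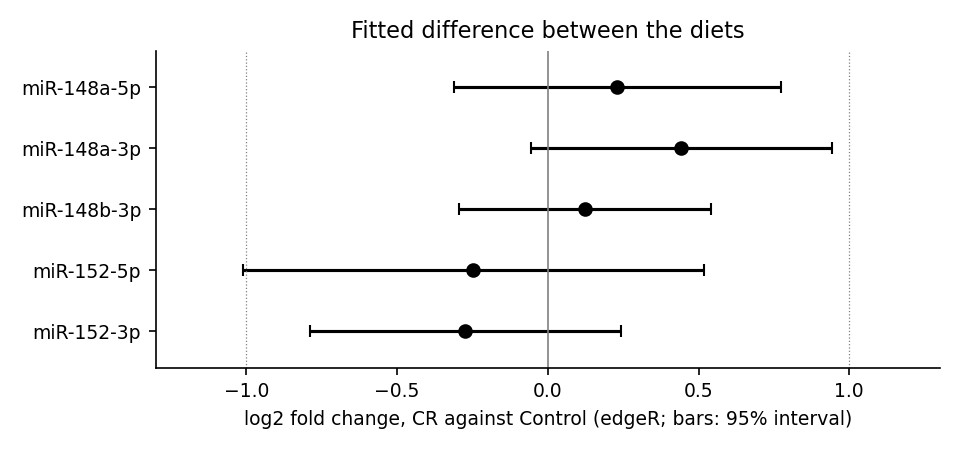
Log2 fold change of CR against Control from edgeR for the 5 family arms that passed the filter on low counts; points are estimates from 5 Control and 8 CR libraries and bars are 95% intervals, with dotted lines at a 2-fold change. Every interval contains 0, from miR-148a-3p at 0.44 to miR-152-3p at -0.27.

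The fitted differences of miR-148a-3p and miR-152-3p pointed in opposite directions. All 3 pairs of main arms were also compared within each library, which needs no scaling between libraries. These tests were chosen with earlier results of these data known, so their p-values are no independent check. The counts of miR-148a-3p over those of miR-152-3p had a geometric mean of 7.06 in Control and 11.95 in CR. The log2 ratio was 2.59, 2.35, 3.53, 2.77 and 2.84 in Control replicates 1 to 5, and 2.80, 2.99, 3.74, 4.50, 3.19, 3.66, 3.65 and 4.11 in CR replicates 1 to 8. Of the CR libraries 7 of 8 lay above the Control mean and 5 above every Control library, while Control replicates 3 and 5 lay within the CR range. The mean was 2.82 ± 0.44 (SD, n = 5) in Control and 3.58 ± 0.57 (SD, n = 8) in CR. The difference of 0.76 had a 95% interval of 0.0849 to 1.41 before adjustment, by inverting the permutation test. The two-sided exact permutation test over all 1287 assignments of the group labels gave p = 0.0287, and p = 0.0862 after adjustment over the 3 pairs of main arms, which misses the threshold. The smallest p these assignments allow is 0.000777.

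The result for this ratio hung on single libraries. Leaving out 1 library at a time gave differences of 0.63 to 0.94 and adjusted exact permutation p values of 0.0303 to 0.191, under 0.05 without Control replicate 3 (0.0303) or CR replicate 1 (0.0417). Without Control replicate 4 the difference was 0.75 and the adjusted exact permutation p 0.112. The other pairs did not pass either. For miR-148a-3p over miR-148b-3p the log2 ratio was 2.51 ± 0.43 in Control (SD, n = 5) and 2.85 ± 0.29 in CR (SD, n = 8), a difference of 0.33 (95% interval -0.0854 to 0.77; adjusted exact permutation p 0.131). For miR-148b-3p over miR-152-3p it was 0.31 ± 0.33 and 0.73 ± 0.51, a difference of 0.43 (-0.15 to 1.00; adjusted exact permutation p 0.131).

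**Figure D3:**
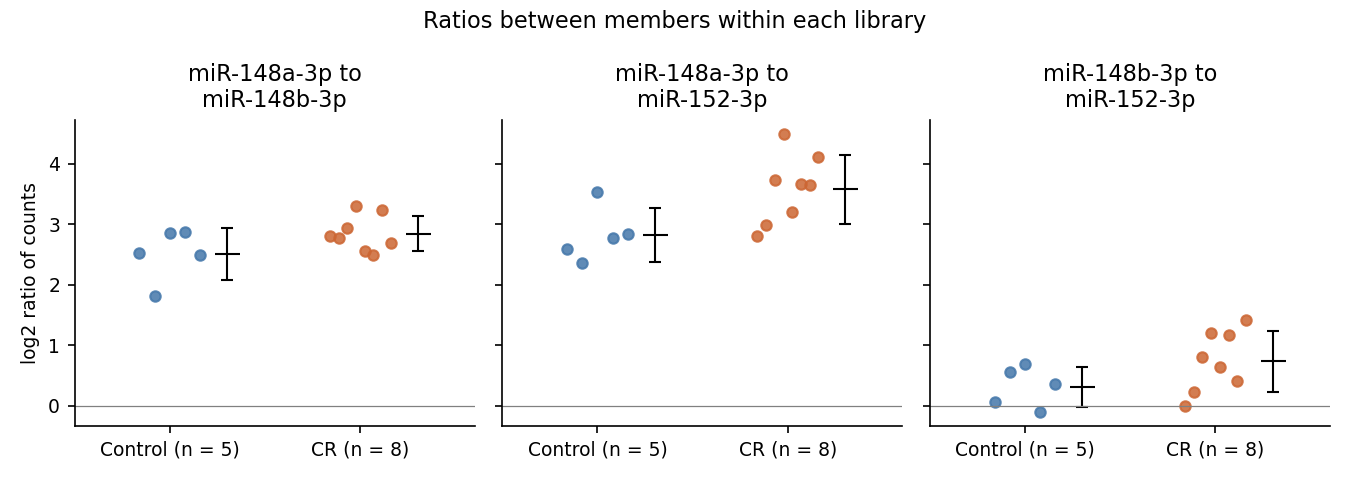
Log2 ratio of counts between the main arms within each library, with 0.5 added to each count, for the 3 pairs; points are libraries and bars the mean ± SD of 5 Control and 8 CR libraries. The ratio of miR-148a-3p to miR-152-3p reaches 4.50 in CR and 3.53 in Control, and the groups overlap in each panel.

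In percent of the family's 3p counts, miR-148a-3p made up 75.6% ± 5.22 in Control (SD, n = 5) and 81.4% ± 3.42 in CR (SD, n = 8). miR-148b-3p made up 13.5% ± 3.43 and 11.4% ± 1.92, and miR-152-3p 10.9% ± 2.38 and 7.17% ± 2.50. The share of miR-152-3p ran from 3.85% in CR replicate 4 to 13.2% in Control replicate 2. These shares are another form of the ratios above and were not tested again.

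**Figure D4:**
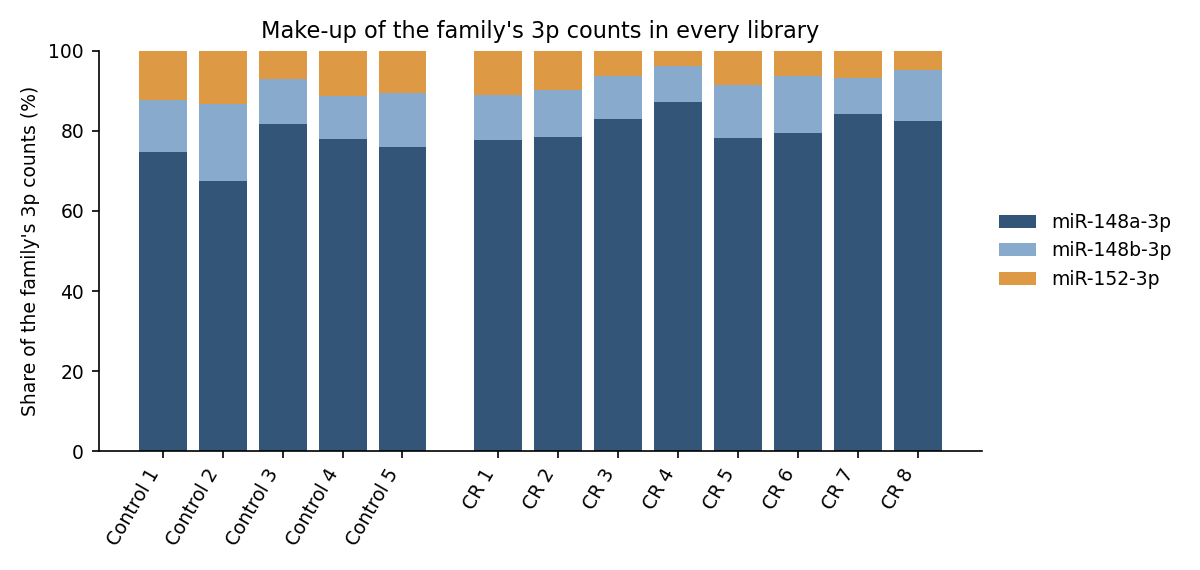
Share of the family's 3p counts (percent, stacked to 100) taken by miR-148a-3p, miR-148b-3p and miR-152-3p in each of the 13 libraries. miR-148a-3p takes the largest share in every library, from 67.5% in Control replicate 2 to 87.3% in CR replicate 4.

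In counts, the share of the 5p arm differed among the 3 hairpins but not detectably between the diets. Ligation favours some ends over others, so a difference among hairpins in counts need not be one in molecules. The 5p arm made up 7.90% ± 1.58 (SD, n = 13) of the counts of miR-148a and 7.24% ± 2.94 of those of miR-152, but 1.07% ± 0.50 of those of miR-148b. In miR-148a the share ran from 5.42% in CR replicate 1 (95% exact binomial interval 4.32 to 6.70%) to 11.2% in Control replicate 1 (9.62 to 13.02%), so libraries differed beyond counting error. In miR-152 it ran from 2.95% in CR replicate 2 (1.48 to 5.22%) to 11.97% in Control replicate 3 (8.44 to 16.3%). As a log2 ratio of 5p to 3p counts, miR-148a stood at -3.42 ± 0.26 in Control (SD, n = 5) and -3.65 ± 0.31 in CR (SD, n = 8), and 7 of 8 CR libraries lay below the Control mean. The difference was -0.23, with a 95% interval of -0.59 to 0.15 and a two-sided exact permutation p of 0.169, or 0.508 after adjustment over the 3 hairpins. For miR-148b the difference was 0.25 (-0.55 to 1.02; adjusted exact permutation p 0.762), resting on at most 6 counts of the 5p arm in a library. For miR-152 it was 0.0584 (-0.85 to 0.95; adjusted exact permutation p 0.883), and its sign changed when any 1 of 5 libraries (Control replicates 1 and 4, CR replicates 4, 6 and 8) was left out. For miR-148b the difference was -0.00892 without Control replicate 4.

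miR-152-3p varied across the biopsies with miRNAs of connective tissue. For each main arm the 5 most similar of 97 tested miRNAs outside the family, with a mean of at least 100 CPM, were found by Spearman's rho of log2 CPM over the 13 libraries, as a description with no test. The closest to miR-152-3p were miR-199a-3p (0.88), miR-140-3p (0.87), miR-199a (0.86), let-7e-5p (0.67) and miR-214-3p (0.67). miR-199a and miR-214, from a shared transcript, mark fibroblasts, and miR-140 is known from cartilage and other connective tissue. On the scale of library totals without miR-486 the values for miR-199a-3p, miR-140-3p, miR-199a, let-7e-5p and miR-214-3p were 0.98, 0.93, 0.92, 0.82 and 0.90. Without Control replicate 4 they were 0.85, 0.83, 0.83, 0.58 and 0.58. miR-152-3p in CPM also followed the TMM factor itself (rho 0.86 over 13 libraries), and the fibroblast list, all 4 names of which were detected, ran from 718 to 2048 CPM in Control (median 1028) and from 487 to 1636 CPM in CR (median 943).

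The log2 ratio of miR-152-3p to miR-199a-3p, a pair chosen after its values were seen, was -2.98 ± 0.29 in Control (SD, n = 5) and -2.98 ± 0.21 in CR (SD, n = 8), a difference between the means of 0.000272. Against the other connective tissue miRNAs close to it the difference, CR minus Control, was 0.14 for miR-140-3p, 0.15 for miR-199a and -0.0117 for miR-214-3p. The value against miR-199a-3p was thus the nearest to 0 of these 4, and the SD between libraries was 0.12 or more in each group for each of them. let-7e-5p, also among the 5 closest, was not compared in this way. Its own log2 fold change was 0.0110 ± 0.25 (SE). Relative to miR-199a-3p the difference was 0.76 for miR-148a-3p and 0.43 for miR-148b-3p. By arithmetic these match the differences relative to miR-152-3p, because the ratio of miR-152-3p to miR-199a-3p differed by only 0.000272. They are no separate observation. The ratio of miR-148a-3p to miR-152-3p had a rho of -0.65 with the summed fibroblast list over the 13 libraries. Its rho with the TMM factor was of like size, -0.68. In edgeR the 4 tested fibroblast miRNAs all had lower fitted levels in CR, like miR-152-3p, with a median log2 fold change of -0.42, or -0.0939 without Control replicate 4, and 0 passed the threshold. With the number in the sample title as a covariate 2 were higher and 2 lower, with a median of -0.0246, and miR-152-3p stood at -0.12. Control samples mostly carried lower numbers than CR samples, so diet and sample order were partly confounded. The 4 tested skeletal muscle miRNAs all had higher fitted levels, like miR-148a-3p, with a median of 0.42 and 0 past the threshold. With library totals alone 3 of these 4 were higher, and without Control replicate 4 only 2 were, with a median of 0.20. The part of fibroblast and muscle fibre content in the levels and ratios of family members was not tested. In bulk tissue fewer cells of a type and less RNA per cell cannot be told apart.

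**Figure D5:**
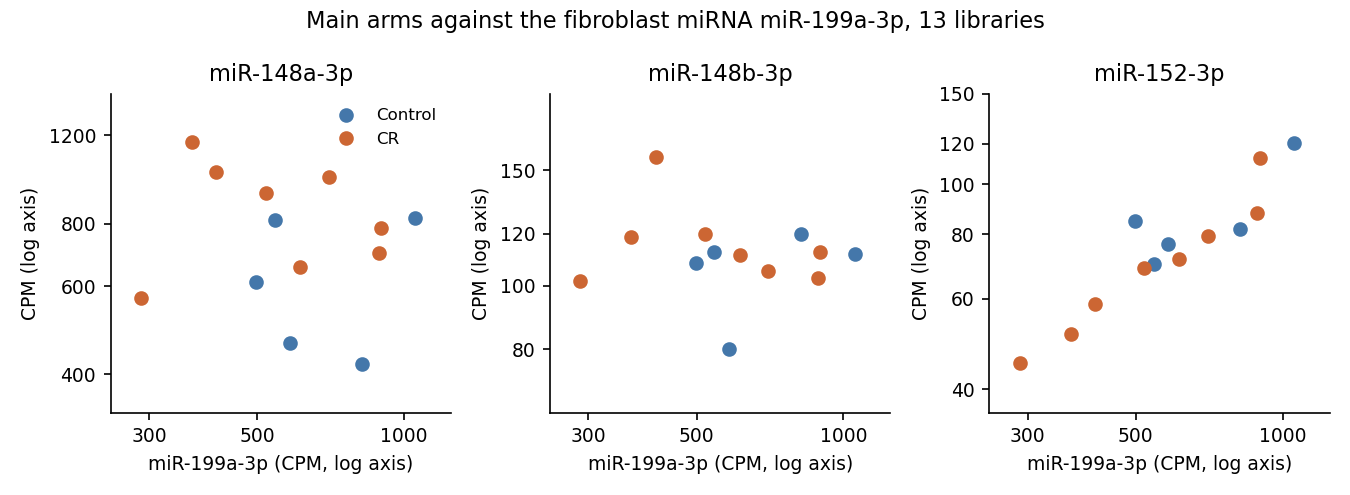
Level of miR-148a-3p, miR-148b-3p and miR-152-3p (vertical log axes, CPM) against that of miR-199a-3p (horizontal log axis, CPM); each point is 1 of 13 libraries, blue for Control and orange for CR. miR-152-3p climbs along with miR-199a-3p. It is lowest in CR replicate 6, at 45.0 CPM, where miR-199a-3p is at 289 CPM. It is highest in Control replicate 4, at 120 CPM, where miR-199a-3p is at 1055 CPM. On this scale the other members show no such line (rho -0.15 for miR-148a-3p and -0.12 for miR-148b-3p). On library totals without miR-486 their values were 0.23 and 0.49, beside 0.98 for miR-152-3p.

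The other main arms had different and weaker company. The miRNAs outside the family nearest to miR-148a-3p were miR-411-5p (0.66) of the DLK1-DIO3 locus, miR-146b-5p (0.63), which rises with NF-kB signalling, let-7f-5p (0.62), miR-98 (0.59), a let-7 family member, and miR-381-3p (0.54) of the DLK1-DIO3 locus. Without Control replicate 4, let-7f-5p (0.77) and miR-98 (0.73) came first. On library totals without miR-486 the value of miR-98 was 0.34, and 3 of the 5 were still among the nearest 5. Outside the family the nearest to miR-148b-3p were miR-6529-5p (0.70), miR-197-3p (0.64), miR-146b-5p (0.57), miR-27b-5p (0.52) and miR-1260b (0.49), of which 1 stayed among the nearest 5 on the other scale, so its company depended on the scaling. The rho of 0.50 between miR-148b-3p and miR-148a-3p was above the last of these.

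Of the other miRNAs listed for the family's pathways, 0 passed the threshold in edgeR. The lists were made by hairpin name and count either arm, so an arm on them need not be the one known for the targeting. Of 8 tested arms of miRNAs known in human cells for targeting DNA methyltransferases (miR-29, miR-101, miR-126, miR-185 and miR-342), 0 passed. Fitted levels in CR were higher for 4 and lower for 4 (median log2 fold change -0.0284). The smallest p values among them belonged to miR-29c-5p, averaging 7.53 ± 2.64 CPM on the control diet (SD, n = 5) against 11.4 ± 4.02 on CR (SD, n = 8), and miR-342-3p, averaging 66.4 ± 14.6 against 87.0 ± 32.8, each with an adjusted p of 0.985 in edgeR. The log2 fold change of miR-342-3p was 0.39 ± 0.26 (SE), 0.11 without CR replicate 8 and -0.0373 with library totals alone. The 3p arms miR-29c-3p and miR-29a-3p had log2 fold changes of 0.13 ± 0.37 and -0.14 ± 0.22 (SE). Of 7 tested arms of miRNAs known for cholesterol and lipoprotein control 0 passed, with 4 higher and 3 lower (median 0.00274). Their smallest p values were those of miR-27a-3p, averaging 231 ± 43.8 CPM on the control diet against 307 ± 121 on CR, and of the liver miRNA miR-122a-5p, averaging 6.42 ± 9.92 against 2.93 ± 3.11 CPM. This list shares miR-223 with the leukocyte and miR-144 with the red blood cell markers. The log2 fold change of miR-122a-5p was -1.17 ± 0.77 (SE), and 0.39 without Control replicate 5. Liver also makes miR-148a in abundance. The liver list (miR-122a, with its 3p arm at 0 in every library) held 0.571 to 24.2 CPM in any library, and miR-148a-3p held 419 CPM or more. The pancreas list (miR-375, miR-216a and miR-217), of another organ rich in miR-148a, held 2.77 to 33.7 CPM. The part of these organs in the level of miR-148a-3p was not tested.

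Of 15 tested arms of miRNAs known to act in muscle differentiation 0 passed in edgeR. In CR 10 had higher and 5 lower fitted levels, with a median log2 fold change of 0.0748, where 51.7% of all tested miRNAs were higher. Without Control replicate 4, 6 were higher and 9 lower, with a median of -0.0262. The split was also 6 and 9 with library totals alone, and 7 and 8 without CR replicate 8. The smallest p values were those of miR-1-3p, averaging 116 ± 58.6 CPM on the control diet (SD, n = 5) against 216 ± 128 on CR (SD, n = 8), and of miR-206, a miRNA of regenerating and young fibres, averaging 1855 ± 940 against 2904 ± 924 CPM, with an adjusted p of 0.985 each. Control replicate 4, with the fewest muscle miRNAs, had the highest miR-148a-3p of its group, 822 CPM, and Control replicate 2 had the lowest. It is 1 library, and it also had the highest TMM factor of all, 1.76. The part of muscle fibre content in its value was not tested. Across the 13 libraries the ratio of miR-148a-3p to miR-152-3p had a rho of 0.34 with the summed muscle list. Leukocyte miRNAs (miR-142, miR-150, miR-155 and miR-223, 6 names, all detected) summed to 330 to 641 CPM in Control and 253 to 721 CPM in CR, red blood cell miRNAs (miR-451 and miR-144) to 138 to 1386 and 135 to 1510 CPM, the endothelial miR-126 to 76.8 to 219 and 66.4 to 145 CPM, and smooth muscle miRNAs (miR-143 and miR-145) to 10985 to 42294 and 13393 to 45620 CPM. Fitted levels in CR were lower for 4 of 4 tested leukocyte miRNAs, 3 of 3 of smooth muscle, miR-451 and miR-126, with 0 past the threshold, and higher without Control replicate 5 for miR-451 (0.10). Without Control replicate 4, or without Control replicate 5, 3 of 4 leukocyte and 2 of 3 smooth muscle miRNAs were lower. The summed ranges overlapped between the diets, and their part in the family's levels was not tested.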

How the data were processed

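Per the labels' protocols, small RNA of a fixed size range was isolated from a gel, made into Illumina TruSeq small RNA libraries and read from 1 end. The values deposited by the authors are counts: whole numbers per miRNA and library, not normalized, as judged from the values. Per the submitters' processing notes the genome build was Mmul_8.0.1. For the aligner and counter, nothing is given in the sources used here.

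Predicted loci (702 of 1703 rows) were left out, the highest-total row was kept per name, and names with nearly the same counts (within 1%; 3 pairs) were merged, leaving 909 miRNAs. Counts were tested with edgeR 4.0.16 in R 4.3.3 (quasi-likelihood fit, robust, TMM factors of 0.624 to 1.76, filterByExpr), with Benjamini-Hochberg adjustment over 263 miRNAs and a threshold of 0.05. Log2 CPM used a prior count of 2 and ratios an added 0.5. Where a count is 0, up to 3 counts are compatible with it, 0.556 to 2.60 CPM by library total. Two-sided exact permutation tests were used for ratios (Python 3.11.15). Libraries of a group differed far beyond counting noise (lowest chi-square over its degrees of freedom 149), so each was counted as 1 sample. The scripts were tested on simulated data. Alternatives included DESeq2 1.42.0, limma-voom (limma 3.58.1), other scalings and filters, a replicate block, the sample number as a covariate and leaving out each library.

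The family, the miRNA lists and the tests were chosen with earlier results of these data known. Named miRNAs are all family rows, the 2 members of each list with the smallest p and the 5 miRNAs most like each main arm.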

Additional observations from a re-analysis of the deposited data

Results flagged for a closer look

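The level of miR-148b-3p in CR replicate 8, at 157 CPM, stood apart from the other 7 CR libraries, which lay between 102 and 120 CPM. The gap to the nearest was 0.667 of the whole range. miR-148b-3p in CR was the 1 group of values flagged for a library far out, of 26 checked. These were 6 arms, 6 ratios and the family's share, in Control and in CR. Chance alone flags about 1 group in 20, so 1 of 26 is about what chance gives. CR replicate 8 had 383 counts of miR-148b-3p, the smallest TMM factor of all libraries (0.624), and the highest summed level of muscle miRNAs (80928 CPM). The part of these in the value was not tested. As a share of the family's 3p counts miR-148b-3p took 12.7% in this library, within the CR range of 8.89 to 14.2%.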

How the results depend on the processing

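Under all 25 alternatives 0 miRNAs and 0 family arms passed an adjusted p of 0.05. The fold change of miR-148a-3p stayed positive and that of miR-152-3p and miR-152-5p negative in each alternative that tested them. With library totals alone the median over all tested miRNAs was -0.26 on the log2 scale, and the fold changes were -0.11 for miR-148a-5p, -0.24 for miR-148b-3p and 0.0699 for miR-148a-3p. Relative to that median these are 0.14, 0.0203 and 0.33. A mean of at least 10 CPM left miR-152-5p out. miR-148a-3p had an unadjusted p under 0.05 in edgeR without Control replicate 3 (0.0435) or 4 (0.0299), with adjusted p values of 0.948 and 0.969. Over single libraries left out the fold changes ran from 0.10 to 0.37 (miR-148a-5p), -0.0207 to 0.17 (miR-148b-3p), -0.45 to -0.0465 (miR-152-5p) and -0.45 to -0.13 (miR-152-3p).

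Over single libraries left out the arm ratio differences ran from -0.31 to -0.12 for miR-148a, -0.00892 to 0.58 for miR-148b and -0.19 to 0.29 for miR-152, and the ratio differences from 0.16 to 0.43 for miR-148a-3p over miR-148b-3p, 0.63 to 0.94 for miR-148a-3p over miR-152-3p and 0.32 to 0.53 for miR-148b-3p over miR-152-3p. Another pseudocount, shares in place of ratios, and summed copies changed no call or direction of these. All libraries had at least 50 counts over both arms. Libraries of the same number in the groups did not deviate together (correlations of -0.24 to -0.0474), and 0 of 5 Control libraries were closest to their own number. With the number as a replicate block 0 miRNAs passed and miR-148a-3p stood at 0.46. The causes of these shifts were not tested. Depth limits miR-148b-5p and miR-152-5p most.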

Other observations

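The Hox clusters that neighbour the family's genes carry miRNAs of their own: MIR196B in HOXA, MIR196A-2 and MIR615 in HOXC, and MIR196A-1 and MIR10A in HOXB, in the same annotation. The list tested also holds miR-10b, which is not among the miRNAs annotated in these clusters. Of the 5 tested arms of miR-10a, miR-10b, miR-196a, miR-196b and miR-615, 0 passed in edgeR. All 5 had higher fitted levels in CR, where 51.7% of all tested miRNAs did (median log2 fold change 0.16). That count depended on the processing. With library totals alone 0 of the 5 were higher (median -0.19, beside -0.26 over all tested miRNAs). With DESeq2, or with the sample number as a covariate, 3 of the 5 were higher. miR-196a-5p averaged 334 ± 16.8 CPM on the control diet (SD, n = 5) against 416 ± 115 on CR (SD, n = 8), and miR-196b-5p 95.3 ± 18.9 against 106 ± 23.4, each with an adjusted p of 0.985. On library totals alone their log2 fold changes were -0.0457 and -0.18, and that of miR-196b-5p was 0.00120 without CR replicate 8.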
